A study of Mus musculus with 48 samples.

Results

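The cation-chloride cotransporters carry chloride across the cell membrane together with sodium or potassium. Of the 24444 genes in the deposited table, 4 were taken by their symbols: Slc12a2 (Nkcc1), Slc12a4 (Kcc1), Slc12a5 (Kcc2) and Slc12a7 (Kcc4). All 4 passed the filter on low values, and their lowest value in any of the 48 samples was 4.06 above the floor of the scale. The samples were cerebral cortex, a single hemisphere each, of C57BL/6J mice, 6 WT and 6 Chd8 V986*/+ (HET) samples at each of 4 ages, the embryonic day E14.5 and the postnatal ages of 1, 6 or 12 months. HET mice carry 1 copy of Chd8, a chromatin remodeler gene linked to autism, with a premature stop codon that was introduced by CRISPR/Cas9. The line came from a single backcrossed founder, and WT controls were littermates without the engineered allele. The study describes the mice used for RNA-seq as male. On the mm9 build the genes lie at chr18:58038332-58106475 on the plus strand (Slc12a2), chr8:108467490-108489974 on the minus strand (Slc12a4), chr2:164786316-164825228 on the plus strand (Slc12a5) and chr13:73870542-73954191 on the plus strand (Slc12a7).

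Slc12a2 encodes the cotransporter that loads cells with chloride. The KCC proteins carry potassium and chloride out of the cell, and Kcc2, made almost only by neurons, is the main chloride extruder of mature neurons. When intracellular chloride is high, opening of GABA-A receptors can depolarize a neuron, and when it is low the same receptors inhibit it. The gain of Kcc2 relative to Nkcc1 during brain maturation is commonly described as the chloride switch. Kcc1 serves volume regulation in many cell types, and Kcc4 is known from epithelia and from the early nervous system. Both import by Nkcc1 and extrusion by the KCC proteins are controlled by WNK kinases acting through the kinases SPAK and OSR1.

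Promoter sequence from RefSeq (GRCm38.p6) is shown for the members with the largest rise and the largest fall after E14.5. Each run holds bases 250 to 31 before a RefSeq start, read 5′ to 3′ on the gene's strand, and capitals mark the E-box CACGTG, a palindrome that USF factors bind. Slc12a5 has 2 RefSeq starts that lie 7142 bases apart, and the windows before them are chr2:164960596-164960815 and chr2:164967738-164967957. The gene-level values analysed here do not separate transcripts from these starts. Slc12a7 also has 2 starts, only 37 bases apart, and of its overlapping windows the one before the second start, chr13:73763447-73763666, is shown because it holds the motif.
Slc12a5 first start: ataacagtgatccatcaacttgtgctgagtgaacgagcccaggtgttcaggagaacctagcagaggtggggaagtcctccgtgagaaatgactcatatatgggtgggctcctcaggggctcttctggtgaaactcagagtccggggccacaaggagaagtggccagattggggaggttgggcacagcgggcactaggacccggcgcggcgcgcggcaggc
Slc12a5 second start: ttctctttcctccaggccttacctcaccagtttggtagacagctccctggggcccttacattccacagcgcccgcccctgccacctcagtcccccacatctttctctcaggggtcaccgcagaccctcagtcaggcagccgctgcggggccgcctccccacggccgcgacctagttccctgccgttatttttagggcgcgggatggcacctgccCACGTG
Slc12a7 second start: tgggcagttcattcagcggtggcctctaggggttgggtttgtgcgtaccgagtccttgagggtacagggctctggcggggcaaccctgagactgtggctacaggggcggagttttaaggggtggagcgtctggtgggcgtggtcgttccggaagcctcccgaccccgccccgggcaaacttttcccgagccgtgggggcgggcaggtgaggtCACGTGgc
The E-box stood 36 bases before the second Slc12a5 start and 38 bases before the second Slc12a7 start. The window before the first Slc12a5 start held none, and neither did the one before the first Slc12a7 start, chr13:73763410-73763629, which ends short of the E-box. The Slc12a4 window, not shown, held no E-box either. CACGTG was found in 5.01% of the 32851 promoter windows of this length. The Egr motif GCGNGGGCG, searched on both strands, was in 3.74% of all windows and in none of the 5 windows of Slc12a4, Slc12a5 and Slc12a7. The windows were rich in G and C, with 59.5% and 64.5% at the Slc12a5 starts and 61.4% and 65.9% at the Slc12a7 starts, against a median of 51.8% over all windows. Slc12a2 had no entry in the promoter table.

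Values are variance-stabilized levels (VST) on a log2 scale, so a difference of 1 is a doubling for well-expressed genes. The floor of the scale, taken as its most frequent value, was 2.14, and near it differences are compressed, so that the change of a low gene is understated. The targeted gene followed the labels: Chd8 had HET minus WT differences of -0.63 at E14.5 and, in order of age, -0.67, -0.64 and -0.54 in the postnatal cortex, and the groups did not overlap at any age (limma, Benjamini-Hochberg adjusted p from 1.069e-07 to 0.0261). In the 12 E14.5 samples, the mean level of 24 markers of regions outside the forebrain (midbrain, hindbrain and spinal cord) ranged from 3.40 to 6.95 in WT and from 3.47 to 4.74 in HET mice, with 2 of 24 near the floor in WT and 12 of 24 in HET mice. In the 36 postnatal samples the group means of the same markers lay between 3.11 and 3.24.

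**Figure D1:**
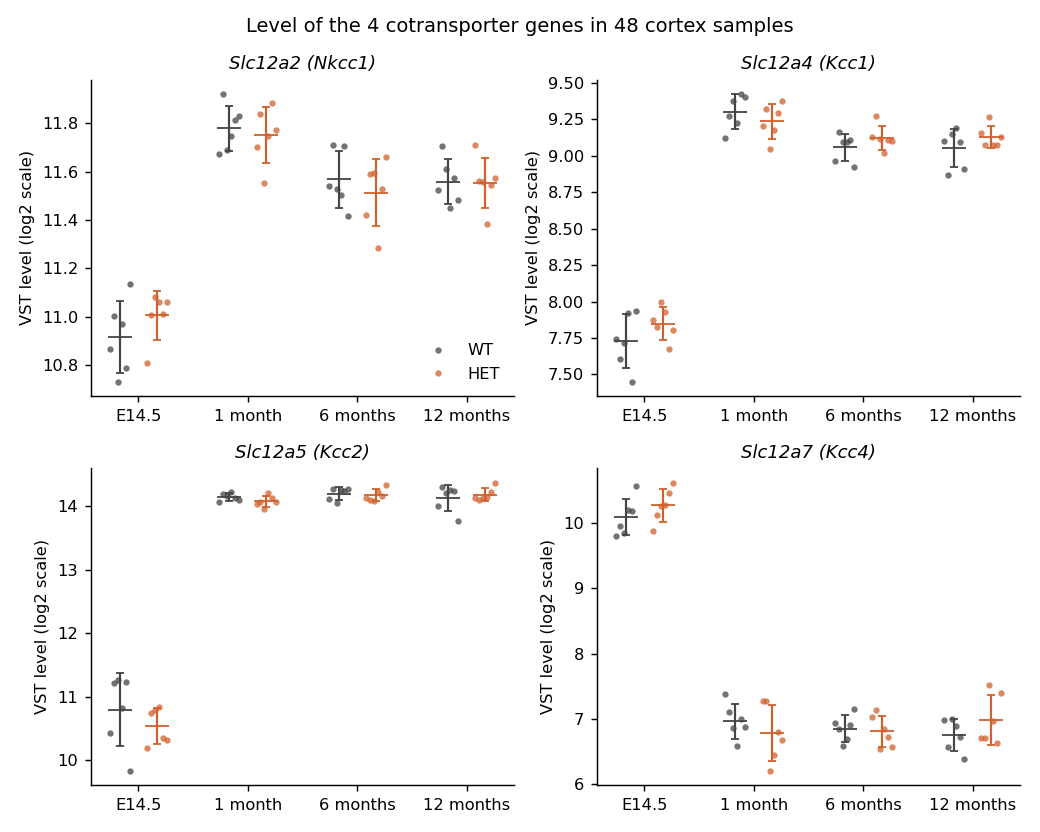
VST level (log2 scale) of the 4 cotransporter genes in each of the 48 samples, by age and genotype; points are samples, horizontal bars are means and error bars are SD (n = 6 per group). Slc12a2, Slc12a4 and Slc12a5 were higher at every postnatal age than at E14.5, and Slc12a7 was lower, in both genotypes.

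The comparison of E14.5 with 1 month asked how the cotransporters changed as the cortex matured. All 4 members changed, and Slc12a2 did not fall: it rose together with Slc12a5 and Slc12a4, while Slc12a7 was the member that fell. A call is a Benjamini-Hochberg adjusted p under 0.1 over all genes tested, from limma. By this measure 85.7% of all genes tested were called in WT mice (43.4% higher, 42.3% lower) and 86.1% in HET mice (43.7% higher, 42.4% lower), so a call as such was common, and the sizes below are what sets the members apart from each other. Bulk tissue cannot tell fewer cells of a type from less RNA per cell.

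Slc12a5, the neuronal chloride extruder, had the largest rise of the members. In WT cortex its level at E14.5 was 9.84, 11.02 and 11.26 (lowest, median and highest of 6 samples), and at 1 month it was 14.06, 14.14 and 14.23. In HET cortex it was 10.19, 10.55 and 10.84 at E14.5 and 13.95, 14.07 and 14.21 at 1 month. No E14.5 sample reached the lowest sample at 1 month in either genotype. The log2 difference was 3.34 (SE 0.19, 95% interval 2.93 to 3.76), or 10.1-fold, in WT mice (limma, adjusted p = 1.411e-10). In HET mice it was 3.54 (SE 0.10, 95% interval 3.32 to 3.76), or 11.6-fold (limma, adjusted p = 1.111e-14). The spread between samples was wide at E14.5 in WT mice (SD 0.57) and narrow at 1 month (SD 0.06).

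Slc12a7 (Kcc4) moved in the opposite direction and by a similar amount. Its WT levels were 9.81, 10.07 and 10.57 at E14.5 and 6.58, 6.94 and 7.37 at 1 month (lowest, median and highest). Its HET levels were 9.88, 10.27 and 10.62 at E14.5 and 6.21, 6.74 and 7.28 at 1 month. All E14.5 samples were above all 1 month samples. It fell by 3.13 on the log2 scale in WT mice (SE 0.14), so that the E14.5 level was 8.76-fold higher (limma, adjusted p = 4.566e-12). It fell by 3.49 in HET mice (SE 0.17), so that the E14.5 level was 11.3-fold higher (limma, adjusted p = 9.43e-12). The mean level of 6 radial glia and progenitor markers, which include Pax6 and Sox2, went down between the same ages, from 11.91 to 8.44 in WT and from 12.02 to 8.36 in HET mice. Its part in the fall of Slc12a7 was not tested.

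Slc12a4 (Kcc1) rose from 7.45, 7.73 and 7.94 in WT mice at E14.5 to 9.12, 9.32 and 9.42 at 1 month (lowest, median and highest). The difference was 1.57 (SE 0.09), or 2.98-fold, in WT mice (limma, adjusted p = 8.03e-11). In HET mice, where the lowest, median and highest levels were 7.67, 7.85 and 8.0 at E14.5 and 9.05, 9.25 and 9.38 at 1 month, it was 1.39 (SE 0.07), or 2.62-fold (limma, adjusted p = 1.432e-11). The ages did not overlap in either genotype.

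Slc12a2 (Nkcc1), the chloride importer, also rose, and its change was the smallest of the 4. Its lowest, median and highest WT levels were 10.73, 10.92 and 11.14 at E14.5 and 11.67, 11.78 and 11.92 at 1 month. Its HET levels were 10.81, 11.04 and 11.08 at E14.5 and 11.56, 11.76 and 11.89 at 1 month. Every 1 month sample was above every E14.5 sample. The log2 difference was 0.86 (SE 0.07), or 1.82-fold, in WT mice (limma, adjusted p = 5.997e-09) and 0.75 (SE 0.06), or 1.68-fold, in HET mice (limma, adjusted p = 6.247e-09). The mean of 6 oligodendrocyte markers, such as Mbp, went from 6.69 to 13.98 in WT and from 6.78 to 13.95 in HET mice over the same ages, and that of 6 astrocyte markers from 8.84 to 12.92 and from 8.85 to 12.86. The neuron, microglia and oligodendrocyte precursor marker means rose as well, while those of progenitors, choroid plexus and endothelial cells fell, in both genotypes. None of these was tested for its part in the rise of Slc12a2.

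**Figure D2:**
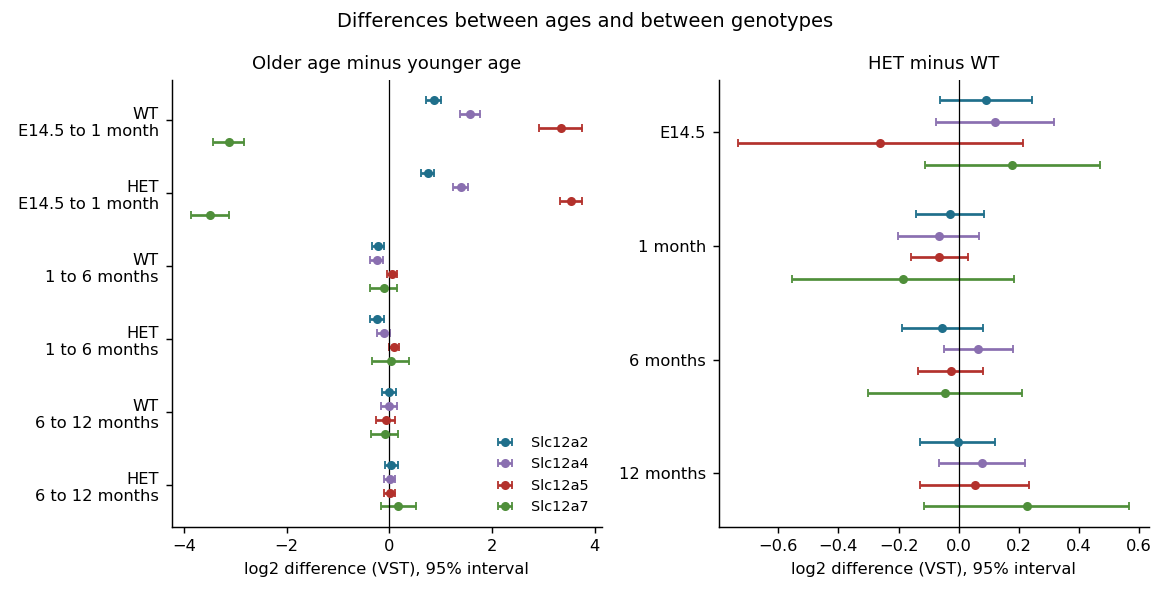
Log2 difference in VST level (points) with its 95% interval (bars) for each member, between consecutive ages in WT and HET mice (left) and between HET and WT mice at each age (right). The step from E14.5 to 1 month ranged from -3.49 (Slc12a7, HET) to 3.54 (Slc12a5, HET), while every interval of the HET minus WT differences included 0.

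The balance of the members was compared within samples, per kb of the longest protein-coding transcript in GENCODE (6.52 kb for Slc12a2, 3.755 kb for Slc12a4, 6.02 kb for Slc12a5 and 5.13 kb for Slc12a7). The difference Slc12a5 minus Slc12a2 at E14.5 was 0.00 on the log2 scale in WT embryos (SD 0.68, n = 6), ranging from -1.18 to 0.64, and Slc12a5 was the higher in 3 of 6 samples. In HET embryos it was -0.35 (SD 0.23, n = 6), ranging from -0.64 to -0.11, and Slc12a5 was the higher in 0 of 6 samples. These embryonic values depend on the length used. With the mean length of the basic protein-coding transcripts in place of the longest, an alternative chosen after seeing the data, the difference was 0.30 in WT embryos, with Slc12a5 the higher in 4 of 6 samples, and -0.05 in HET embryos, with Slc12a5 the higher in 3 of 6. By 1 month the difference was 2.47 in WT mice (SD 0.09) and 2.44 in HET mice (SD 0.09), that is 5.56-fold and 5.42-fold more Slc12a5 than Slc12a2 per kb (2.78 and 2.74 with the mean lengths). The balance thus moved by 2.48 in WT and 2.79 in HET mice, a change between ages in which the length cancels by construction. The rise of Slc12a5 rather than a fall of Slc12a2 made up this change. Slc12a5 was above Slc12a2 in 36 of 36 postnatal samples. These within-sample differences combine members and were described without a test.

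Across the 12 E14.5 samples the order per kb was open apart from its lowest place. Slc12a2 spanned 8.03 to 8.43 per kb on the log2 scale, Slc12a5 spanned 7.25 to 8.67, and Slc12a7 spanned 7.45 to 8.26, so these neighbours overlapped. With these lengths Slc12a2 was above Slc12a7 in 12 of 12 samples, and Slc12a5 was above Slc12a7 in 9 of 12. With the mean transcript lengths Slc12a2 was above Slc12a7 in only 2 of 12, and Slc12a5 was above Slc12a7 in 7 of 12, so the order of these 3 genes in the embryo was not fixed by the data. Slc12a4 lay apart at 5.54 to 6.09, and at 5.57 to 6.11 with the mean lengths. In the 36 postnatal samples the order was Slc12a5 (11.17 to 11.77), Slc12a2 (8.58 to 9.22), Slc12a4 (6.96 to 7.51) and Slc12a7 (3.85 to 5.16), and no neighbours overlapped with either set of lengths.

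The makeup of the potassium-chloride cotransporters was followed over the 3 KCC members. Each gene's level was taken off the log2 scale, divided by its length and given as a share of the sum over Slc12a4, Slc12a5 and Slc12a7. In WT embryos Slc12a5 took 52.4% of this sum (SD 12.5), Slc12a7 took 37.7% (SD 10.6) and Slc12a4 took 9.95% (SD 2.39). In HET embryos the shares were 44.9% for Slc12a5 (SD 5.77), 43.9% for Slc12a7 (SD 6.19) and 11.2% for Slc12a4 (SD 1.54). At 1 month, Slc12a5 took 93.9% in WT mice (SD 0.48) and 94.0% in HET mice (SD 0.55). The Slc12a7 share was then 0.778% in WT and 0.729% in HET mice, and the Slc12a4 share was 5.29% and 5.28%. The Slc12a5 share stayed between 94.6% and 94.97% at 6 and 12 months in both genotypes. With the mean transcript lengths, the Slc12a5 share at E14.5 was 49.2% in WT embryos, against 43.2% for Slc12a7. In HET embryos the order turned, with 41.6% for Slc12a5 and 49.9% for Slc12a7. At 1 month the Slc12a5 share was 94.7% in both genotypes with these lengths.

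**Figure D3:**
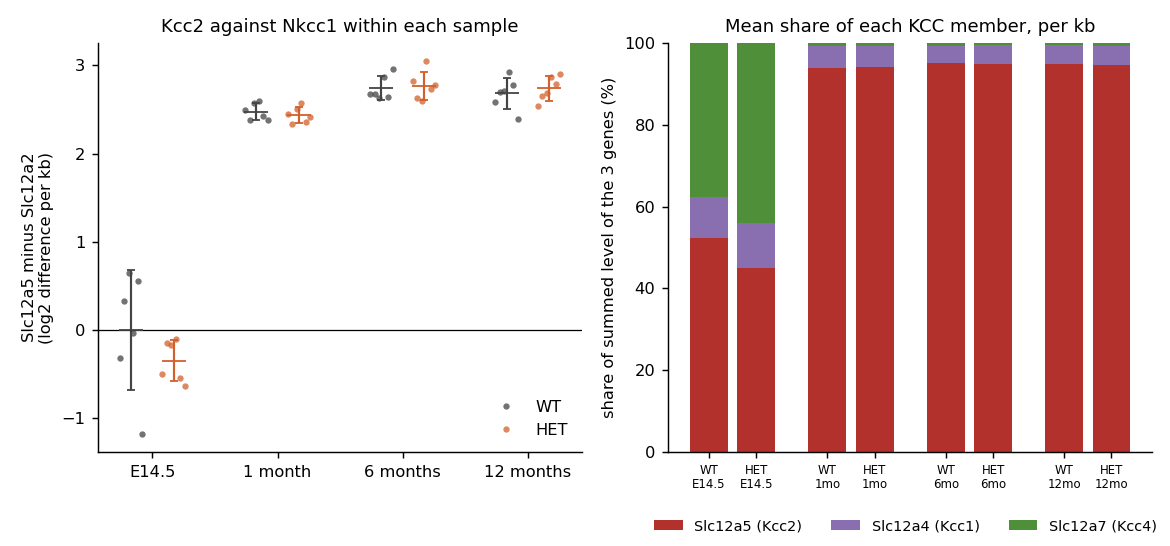
Left, Slc12a5 minus Slc12a2 per kb of the longest transcript (log2 difference) in each sample, with mean and SD (n = 6 per group); right, mean share (%) of Slc12a4, Slc12a5 and Slc12a7 in their summed level per kb, with the same lengths, for each genotype and age (mo, months). The mean difference moved from 0.00 (WT) and -0.35 (HET) at E14.5 to between 2.44 and 2.77 postnatally, and the Slc12a5 share from 52.4% and 44.9% to between 93.9% and 94.97%.

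The comparison of 1 with 6 months asked whether the cotransporters kept changing in the adult cortex. In WT mice 2 of the 4 members were called, both lower, against 24.6% of all genes (12.3% higher, 12.3% lower). In HET mice 1 of the 4 was called, again lower, against 26.8% of all genes (14% higher, 12.8% lower). With 4 members, these counts say little against such a background. Slc12a2 was the member called in both genotypes. It fell by 0.21 in WT mice (SE 0.06, limma adjusted p = 0.0132), where its lowest, median and highest levels at 6 months were 11.42, 11.53 and 11.71, and by 0.24 in HET mice (SE 0.06, limma adjusted p = 0.0142), where they were 11.28, 11.56 and 11.66. The samples of the 2 ages overlapped in both genotypes. Oligodendrocyte markers went down between the same ages, from 13.98 to 13.14 in WT and from 13.95 to 12.93 in HET mice, and their part in the decrease of Slc12a2 was not tested.

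Slc12a4 fell by 0.25 from 1 to 6 months in WT mice (SE 0.06, limma adjusted p = 0.00988), to 8.93, 9.09 and 9.16 (lowest, median and highest). In HET mice the difference was -0.11 (SE 0.06, limma adjusted p = 0.198) and did not pass the threshold, but it did without replicate 3 of the 1 month HET group, where it was -0.15 (limma adjusted p = 0.0662). The test of the difference between the genotypes gave 0.13 (95% interval -0.07 to 0.33, limma adjusted p = 1), so the 2 changes were not shown to differ. Slc12a5 differed by 0.05 in WT mice (95% interval -0.05 to 0.16) and 0.09 in HET mice (95% interval -0.01 to 0.19), without passing the threshold. For Slc12a7 the differences were -0.11 (95% interval -0.38 to 0.15) and 0.03 (95% interval -0.34 to 0.39).

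From 6 to 12 months, limma called 0 of 4 members in either genotype, and 0 of these 8 differences had an unadjusted p under 0.05. The background was 0.00579% of genes in WT mice and 3.43% in HET mice. The sizes ranged up to 0.18, for Slc12a7 in HET mice (95% interval -0.16 to 0.51). For Slc12a5 the interval was -0.25 to 0.11 in WT and -0.10 to 0.12 in HET mice, and for Slc12a2 it was -0.14 to 0.12 and -0.09 to 0.17. Over the 36 postnatal samples, the group means of Slc12a5 thus spanned only 0.12 on the log2 scale, those of Slc12a2 0.27, those of Slc12a4 0.25 and those of Slc12a7 0.23.

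HET mice were compared with WT mice at each age to ask whether the heterozygous Chd8 stop codon altered the cotransporters. No difference was detected for any member at any age in these fits, which did not pair samples. Of the 16 differences, 0 were called by limma and 0 had an unadjusted p under 0.05, with adjusted p from 0.584 to 0.987. The background was low as well in these limma fits of VST levels. It was 0.00593% of genes called in embryos, 0.139% in 1-month-old mice, 0.0927% at 6 months and 0.0463% in the oldest mice. The study's own test between genotypes, which took account of batch, called many more genes at the same threshold. The low background thus describes these fits and was not shown to be a property of HET cortex. Lack of a call for a member is limited in the same way. All HET and WT groups overlapped for all 4 members. At 1 month the intervals were narrow for Slc12a5, at -0.06 (95% interval -0.16 to 0.03), and for Slc12a2, at -0.03 (95% interval -0.14 to 0.08). For Slc12a4 the value at 1 month was -0.07 (95% interval -0.20 to 0.07). Slc12a7 was the least precisely measured, at -0.18 (95% interval -0.55 to 0.18).

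At 6 months the HET minus WT differences were -0.05 for Slc12a2, 0.07 for Slc12a4, -0.03 for Slc12a5 (95% interval -0.14 to 0.08) and -0.04 for Slc12a7. At 12 months they were -0.00 for Slc12a2 (95% interval -0.13 to 0.12), 0.08 for Slc12a4, 0.05 for Slc12a5 (95% interval -0.13 to 0.23) and 0.23 for Slc12a7 (95% interval -0.11 to 0.57). The 12-month Slc12a7 levels were 6.39, 6.81 and 7.0 in WT and 6.62, 6.83 and 7.52 in HET mice (lowest, median and highest), so the medians nearly coincided. With the oligodendrocyte marker mean as a covariate, Slc12a2 was 0.13 at 6 months instead of -0.05, still without passing the threshold (limma, adjusted p = 0.9999). At that age the marker mean did not overlap between genotypes (13.04 to 13.23 in WT, 12.72 to 13.03 in HET mice). The fit therefore cannot cleanly separate the covariate from genotype.

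At E14.5 the HET minus WT differences were 0.09 for Slc12a2 (95% interval -0.06 to 0.24), 0.12 for Slc12a4 (95% interval -0.08 to 0.32), -0.26 for Slc12a5 (95% interval -0.73 to 0.21) and 0.18 for Slc12a7 (95% interval -0.11 to 0.47). The adjusted p was 0.982 for each of the 4 (limma). Slc12a5 thus had the widest interval, and its direction was not kept in 1 alternative: with the mean of the midbrain, hindbrain and spinal cord markers as a covariate the difference was 0.10 in place of -0.26 (limma, adjusted p = 1). Without WT replicate 5, the sample highest in those markers at 6.95, it was -0.17. Without WT replicate 6, the sample lowest in Slc12a5, it was -0.45 (limma, adjusted p = 0.281). The main fits were unpaired, although same-numbered samples gave a hint of pairing at E14.5. HET samples were above the same-numbered WT sample in 6 of 6 pairs for Slc12a7 and 5 of 6 for Slc12a4. For Slc12a2 this held in 4 of 6 pairs and for Slc12a5 in 2 of 6. With the replicate number as a block, Slc12a7 had an adjusted p of 0.349 (limma), so a small paired difference is not excluded.

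The wide spread of the E14.5 samples went along with marker levels. Over the 12 embryonic samples, Slc12a5 correlated with the mean of 6 neuron markers (Pearson r = 0.872) and with the midbrain, hindbrain and spinal cord markers (r = 0.797), and inversely with striatum and ganglionic eminence markers (r = -0.859) and cortex markers (r = -0.636). The WT sample with the lowest Slc12a5 (9.84, replicate 6) had the lowest neuron marker mean of the 12, at 12.84, and the lowest midbrain, hindbrain and spinal cord mean, at 3.40. The 3 WT samples above 11.2 (replicates 2, 3 and 5) had neuron means of 13.26, 13.25 and 13.20. They were also the 3 highest in the midbrain, hindbrain and spinal cord markers, at 5.24, 5.27 and 6.95.

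Slc12a7 tracked another group. It correlated with the radial glia and progenitor markers at r = 0.942 over the same 12 samples, and inversely with the neuron markers (r = -0.725). Its highest levels, 10.57 in WT replicate 6 and 10.62 in HET replicate 6, stood in the 2 samples with the highest progenitor means, 12.39 and 12.33. Slc12a2 had r = 0.65 with the cortex markers, 0.624 with 2 oligodendrocyte precursor markers and 0.615 with the progenitor markers. Its correlation was inverse with neuron markers (-0.534), midbrain, hindbrain and spinal cord markers (-0.48), oligodendrocyte markers (-0.444) and astrocyte markers (-0.396). With striatum and ganglionic eminence markers Slc12a2 had r = 0.598 and Slc12a4 had r = 0.766. Slc12a4 also had r = 0.742 with the cortex markers and -0.686 with those of midbrain, hindbrain and spinal cord. These points share library preparation, normalization and dissection, and the values are descriptions without a test. The group means removed, the correlation of Slc12a5 was 0.862 with neuron markers, -0.868 with striatum and ganglionic eminence markers and 0.842 with oligodendrocyte markers. It was 0.883 with the 12 midbrain, hindbrain and spinal cord markers that passed the filter on low values. The correlation of Slc12a7 with progenitor markers was then 0.944.

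**Figure D4:**
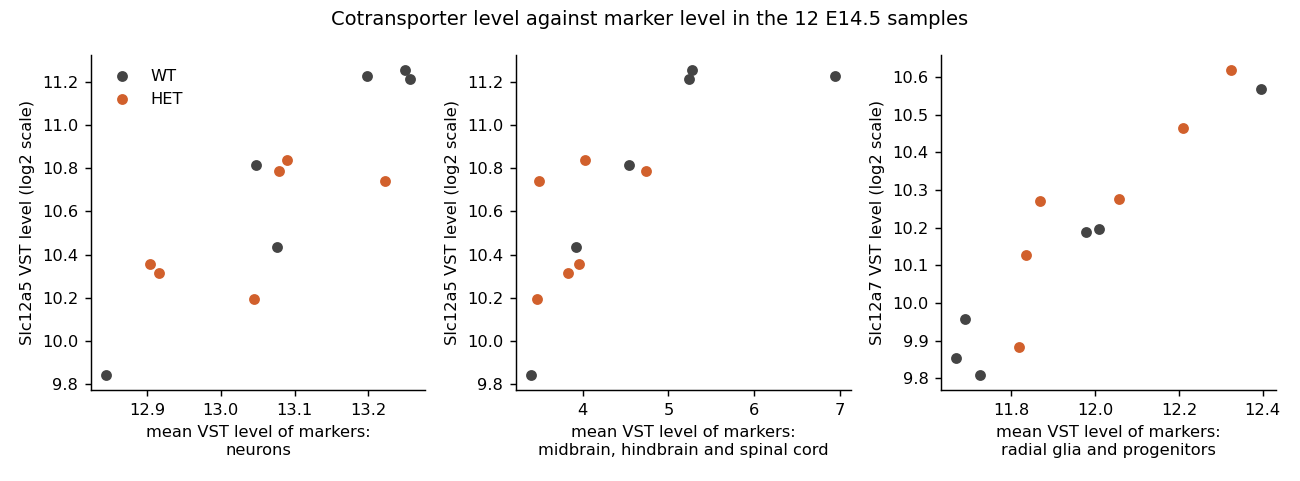
VST level (log2 scale) of Slc12a5 against the mean level of neuron markers (left) and of midbrain, hindbrain and spinal cord markers (middle), and of Slc12a7 against radial glia and progenitor markers (right), in the 12 E14.5 samples (6 WT, 6 HET). Pearson r was 0.872, 0.797 and 0.942 from left to right.

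Whether the change with age differed between genotypes was tested in a fit of all 48 samples. For the step from E14.5 to 1 month the difference of the changes (HET minus WT) was -0.12 for Slc12a2, -0.19 for Slc12a4, 0.20 for Slc12a5 (95% interval -0.19 to 0.58) and -0.36 for Slc12a7 (95% interval -0.83 to 0.11). Limma called 0 of the 12 member values over the 3 age steps, and 0 had an unadjusted p under 0.05, the lowest being 0.0649 for Slc12a4 at the first step. The background was 0% of 17311 genes for the first step (796 with an unadjusted p under 0.05), 0% for the second (581 with an unadjusted p under 0.05) and 0.0578% for the step from 6 to 12 months.

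The family list held 4 further Slc12 genes beside the members. From E14.5 to 1 month, 3 of them were tested. In each genotype 1 was called, against 85.7% of all genes in WT and 86.1% in HET mice. That gene, Slc12a9, rose by 0.68 in WT (SE 0.08) and 0.58 in HET mice (SE 0.06). Slc12a8 had differences of 0.11 and 0.31 that did not pass the threshold. Slc12a1 (Nkcc2) and Slc12a3 (Ncc), the transporters of the kidney tubule, had group means between 2.14 and 3.13 and were thus at or near the floor of 2.14. From 1 to 6 months, Slc12a8 rose by 0.57 in WT mice (SE 0.15, limma adjusted p = 0.0155) and Slc12a9 fell in both genotypes, by 0.17 in WT and 0.16 in HET mice. In that step 24.6% of all genes were called in WT and 26.8% in HET mice.

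The WNK-SPAK pathway activates Nkcc1 and restrains the KCC proteins by phosphorylation. Of its 10 genes, 4 rose and 4 fell from E14.5 to 1 month in WT mice, and 4 rose and 3 fell in HET mice. These shares were near those of all genes tested (43.4% higher and 42.3% lower in WT, 43.7% and 42.4% in HET mice), and the median differences of -0.02 and -0.01 were near the 0.02 of all genes. Klhl3, an adaptor that marks WNK kinases for degradation, rose by 1.79 in WT (SE 0.12) and 2.06 in HET mice (SE 0.09). The kinase Wnk3 fell by 0.87 and 0.71. From 1 to 6 months, 6 rose and 1 fell in WT mice and 5 rose and 1 fell in HET mice, with medians of 0.14 and 0.10 against 0.01 over all genes in each. Of all genes, 12.3% rose and 12.3% fell in this step in WT mice, and 14% rose and 12.8% fell in HET mice. In that step Cab39l, a scaffold of SPAK and OSR1, rose by 0.28 in WT mice (SE 0.05, limma adjusted p = 0.00143), and Oxsr1, the gene of OSR1, rose by 0.22 in both genotypes. Klhl3 fell by 0.23 and 0.28, and Wnk4 rose by 0.31 in HET mice (SE 0.12, limma adjusted p = 0.0845). From 6 to 12 months 1 of the 10 was called in HET mice, lower (limma, adjusted p = 0.0825), against 3.43% of all genes. In WT mice 0 of the 10 were called, against 0.00579% of all genes. The test of the difference between genotypes in that step called 0 of the 10.

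The list of KCC2 partners and regulators of its transcription or trafficking held 16 genes, of which 7 rose and 7 fell from E14.5 to 1 month in each genotype, again near the shares of all genes given above for this step. The medians were -0.02 in WT and 0.01 in HET mice, against 0.02 over all genes in each. Egr4, a transcription factor known to activate the Kcc2 gene, rose by 7.39 in WT (SE 0.20) and 7.13 in HET mice (SE 0.16). Its embryonic group means were 2.94 and 3.19, near the floor. Prkcb, a protein kinase C gene, rose by 4.06 and 4.47, and Bdnf, a neurotrophin, rose by 3.86 and 4.17. The repressor gene Rest, which binds near neuronal genes, fell by 2.02 (SE 0.13) and 2.22 (SE 0.14), and Usf1, whose product binds the E-box, fell by 1.19 and 1.2. Slc12a5 rose over the same step in which Rest and Usf1 fell and Egr4 rose. Any part of these genes in the rise of Slc12a5 was not tested. From 1 to 6 months 1 rose and 3 fell in WT mice, among them Arhgef7 by 0.37 and Igf1 by 0.29. In HET mice 1 rose and 4 fell, among them Arhgef7 by 0.32 and Bdnf by 0.29. The medians of the list were -0.06 and -0.04, beside shares of all genes of 12.3% in each direction in WT mice and of 14% higher and 12.8% lower in HET mice. From 6 to 12 months Bdnf fell by 0.32 (SE 0.05, limma adjusted p = 0.00807) and Arhgef7 by 0.19 in HET mice, where 3.43% of all genes were called. In WT mice 0 of 16 were called, against 0.00579% of all genes, and limma gave 1 of the 16 an unadjusted p under 0.05. The lack of calls in WT mice was thus common to nearly all genes. The test of the difference between genotypes in this step called 0 of the 16, with 1 at an unadjusted p under 0.05.

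Other chloride and bicarbonate transporters, carbonic anhydrases and sodium pump subunits were followed in a list of 15 genes, and 12 rose in both genotypes from E14.5 to 1 month, with medians of 2.71 in WT and 2.85 in HET mice, against 0.02 over all genes in each. Of all genes, 43.4% rose in this step in WT and 43.7% in HET mice. Of the list, 2 fell in WT and 1 in HET mice. Atp1b1, a sodium pump subunit, rose by 4.27 in WT and 4.52 in HET mice. Car7, a neuronal carbonic anhydrase, rose by 4.09 and 4.21, and the bicarbonate transporter Slc4a10 by 4.07 and 4.35. The chloride channel gene Ano1 fell by 2.13 and 2.41. From 1 to 6 months the WT counts were 2 higher and 2 lower, with Best1 rising by 0.54 and Slc4a2 falling by 0.27. The HET counts were 4 higher and 2 lower, with Ano1 rising by 0.50 and Best1 by 0.41 and Slc4a2 falling by 0.33. The medians were 0.03 in both genotypes, against 0.01 over all genes, of which 12.3% were higher and 12.3% lower in WT mice and 14% and 12.8% in HET mice. In the comparisons of HET with WT mice limma called 0 genes of all 4 lists at any age. At an unadjusted p under 0.05 the counts over the 4 lists were at most 2 per list, and 4.56% to 11.6% of all genes passed that mark.

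The genes most like each member over the 48 samples were found by Pearson correlation among 17307 genes, a measure that mostly reflects the step from E14.5 to the postnatal ages. For Slc12a5 they were Kcnc4 (r = 0.998), a potassium channel gene, Gpr158 (r = 0.998), an orphan receptor gene, and Dnm1 (r = 0.998), which encodes the synaptic vesicle protein dynamin 1. Slc12a2 was most like Ugt8a (r = 0.949), an enzyme of myelin lipid synthesis, Adam9 (r = 0.947) and Myadm (r = 0.946). Slc12a4 was most like Slc44a1 (r = 0.984), a choline transporter gene, Vsir (r = 0.984) and Tmem119 (r = 0.983), a microglia marker. Slc12a7 was most like Nynrin (r = 0.989), Twsg1 (r = 0.989), a BMP modulator gene, and Cand2 (r = 0.989).

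Within the postnatal ages, with the group means removed, the likeness over 36 samples changed its partners. Slc12a5 remained close to Dnm1 (r = 0.938), followed by Atp6v0a1 (r = 0.927), a proton pump subunit, and Syngr1 (r = 0.918), a synaptic vesicle gene. It correlated with the neuron markers at 0.782 and with astrocyte markers at -0.618. Slc12a2 was most like Enpp4 (r = 0.782), Pi4k2b (r = 0.747) and C2cd2 (r = 0.736). Its correlation was 0.534 with the mean of 6 choroid plexus markers, whose postnatal samples ranged from 5.80 to 9.05, and 0.474 with the oligodendrocyte markers. With the astrocyte markers Slc12a2 had r = -0.205. Slc12a4 was most like Pgm5 (r = 0.679), Sema4b (r = 0.676) and Itgb5 (r = 0.675). Slc12a7 was most like Aebp1 (r = 0.831), the collagen gene Col1a1 (r = 0.814) and Foxd1 (r = 0.802). It had r = 0.597 with a pair of oligodendrocyte precursor markers and 0.462 with 4 endothelial markers. This was not particular to Slc12a7: with the same marker sets Slc12a4 had 0.555 and 0.454, and Slc12a2 had 0.319 and 0.437. These correlations share libraries and depth and carry no test.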

How the data were processed

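RNA-seq of cortex was analysed from 1 table of 24444 genes and 48 samples, grouped by genotype and age from the sample labels. The authors filtered and trimmed reads, aligned them to mm9 with STAR 2.5.2b and quantified transcripts with Salmon 0.11.3. The deposited values are log2-scale variance-stabilized levels from DESeq2 1.22.2, and no gene's mean over replicates 1 to 3 differed by more than 3.38e-14 from that over replicates 4 to 6, which means that a difference between these sets was taken out before deposit and is missing from the spread between samples. Counts were not used here, and the depth behind single genes is unknown. The annotation the authors used is not given in the sources used here.

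Comparisons were fitted with limma 3.58.1 (R 4.3.3, trend) on genes with a mean at least 0.5 above the floor of 2.14, with Benjamini-Hochberg adjustment over all genes tested and a threshold of 0.1. A self-test of the fits ran on values simulated apart for each gene, without any structure shared between samples. Its outcome is not used here. The study describes the replicates as biological, while the labels name no animal for each, and p-values measure the spread between these samples. No label pairs samples by their shared replicate numbers, and the main fits were unpaired. Named genes were the members, list genes called between genotypes, up to 3 called genes per list with the largest rise and up to 3 with the largest fall in an age step, and the 3 most correlated genes per member. Slc12a8 and Slc12a9 in the first age step were named after their values were seen. The members and lists were chosen with earlier results of these data known. Alternatives included other filters, normalizations, thresholds, covariates, a replicate block and leaving out each sample. An item of the cotransporter family list is not reported here.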

Additional observations from a re-analysis of the deposited data

Results flagged for a closer look

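Of the 32 combinations of a member and a group, 1 held a sample that stood apart by Dixon's criterion, and chance alone would put about 1 in 20 groups there. In HET embryos at E14.5, the lowest Slc12a2 level was 10.81 (replicate 1), while the other 5 samples lay between 11.01 and 11.08. The gap to the nearest sample was 0.73 of the group's range, above the 95% critical value for groups of this size. The same sample was also the lowest of its group in Slc12a5 (10.19) and in Slc12a7 (9.88).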

How the results depend on the processing

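The changes from E14.5 to 1 month kept their direction and their calls for the 4 members in both genotypes under each alternative run, and so did the decreases from 1 to 6 months of Slc12a2 in both genotypes and of Slc12a4 in WT mice. Quantile normalization moved the median of all genes in the first step from 0.02 to -0.10 in WT and from 0.02 to -0.11 in HET mice without turning a member. No member was called between HET and WT mice in any of 368 alternative fits (lowest adjusted p 0.281). The depth behind each gene is unknown, so the limit it sets cannot be given. No label pairs samples by replicate number, and the main fits were unpaired. At E14.5, however, same-numbered samples had a mean correlation of 0.226, ranging down to 0.0153, against -0.0443 for other samples. There 7 of 12 correlated best with their own number, which is a hint of pairing from the data and not from the design. With the replicate block, limma gave 1995 genes an unadjusted p under 0.05 between HET and WT mice at E14.5, against 769 without it. HET samples at E14.5 were above the same-numbered WT sample in 6 of 6 pairs for Slc12a7 (by 0.052 to 0.42), 5 of 6 for Slc12a4, 4 of 6 for Slc12a2 and 2 of 6 for Slc12a5. The replicate block changed no call of a member, with adjusted p from 0.349 (Slc12a7) to 0.533 (Slc12a2) between HET and WT mice at E14.5. The cause was not tested for any of the changes that follow.

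The number of genes called by limma between HET and WT mice at E14.5 (1) was 2 with the replicate block, 93 in a fit of all 48 samples, 3 without a filter, 2 with a filter at 1.5 above the floor, 2 with quantile normalization and 2 with the set of replicates as a covariate. It was 0 without a trend (782 with an unadjusted p under 0.05) and 0 with the midbrain, hindbrain and spinal cord marker mean as a covariate (407 with an unadjusted p under 0.05). At 1 month (24) it was 13 with the replicate block, 37 in the fit of all samples and 15 at an adjusted p under 0.05. At 6 months (16) it was 30 with the block, 4 without a trend, 5 at an adjusted p under 0.05 and 2 with the oligodendrocyte marker mean as a covariate. At 12 months (8) it was 2 with the block, 520 in the fit of all samples, 3 at an adjusted p under 0.05 and 3 with the oligodendrocyte covariate. From 6 to 12 months in WT mice (1) it was 7 in the fit of all samples, and 0 with the block, with an adjusted p under 0.05 and with the set covariate (1246, 1167 and 1165 with an unadjusted p under 0.05). In HET mice (592) it was 100 in the fit of all samples, 257 without a trend and 260 at an adjusted p under 0.05. The genotype difference of this step (10) was 6 with the block and 6 at an adjusted p under 0.05.

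Of 524 values of members under other settings, 5 changed sign, and none of these was called. Slc12a5 between HET and WT mice at E14.5 was 0.10 with the midbrain, hindbrain and spinal cord covariate (otherwise -0.26). With the oligodendrocyte covariate Slc12a2 was 0.13 at 6 months (otherwise -0.05) and 0.0014 at 12 months (otherwise -0.0035). At 6 months this covariate did not overlap between genotypes. From 6 to 12 months, Slc12a2 in WT mice was 0.027 with quantile normalization (otherwise -0.010) and Slc12a4 in HET mice was -0.0022 with centring on the median gene (otherwise 0.0059). Slc12a5 from 1 to 6 months in HET mice passed the threshold with the set covariate (0.092, adjusted p = 0.0955; range over its alternatives 0.0955 to 0.721). The Slc12a5 share of the level of the 3 KCC members at 1 month in WT mice (93.9%) was 93.4% with quantile normalization and 94.7% with the mean transcript length, and in HET mice (94.0%) it was 94.7% with the mean transcript length. That length moved the difference of Slc12a5 minus Slc12a2 per kb from -0.35 to -0.048 in HET embryos, and at 1 month from 2.47 to 2.78 in WT and from 2.44 to 2.74 in HET mice. Both alternatives were chosen after seeing the data.

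With 1 sample left out, 38 of 768 member values changed sign, none of them called, and 1 passed the threshold. That was Slc12a4 from 1 to 6 months in HET mice, which ranged from -0.15 (without HET replicate 3 at 1 month, adjusted p = 0.0662) to -0.085. Between HET and WT mice the ranges were -0.056 to 0.010 for Slc12a2 at 1 month, -0.11 to 0.015 for Slc12a7 at 6 months, and -0.034 to 0.031 for Slc12a2 and -0.020 to 0.086 for Slc12a5 at 12 months. For the genotype difference of the change they were -0.065 to 0.021 for Slc12a2 from 1 to 6 months and -0.026 to 0.041 for Slc12a4 from 6 to 12 months. Slc12a7 in HET mice from 1 to 6 months ranged from -0.089 to 0.13. From 6 to 12 months in WT mice the ranges were -0.040 to 0.019 for Slc12a2, -0.033 to 0.032 for Slc12a4 and -0.10 to 0.0048 for Slc12a5, and in HET mice -0.0052 to 0.075 for Slc12a2, -0.022 to 0.036 for Slc12a4 and -0.025 to 0.044 for Slc12a5. Counts of genes called between HET and WT mice ranged from 0 to 2 at E14.5, from 3 (without HET replicate 5) to 32 at 1 month, from 5 (without HET replicate 5) to 21 at 6 months and from 2 to 251 (without WT replicate 3) at 12 months. For the genotype difference of the change they ranged from 0 to 118 (without WT replicate 6 at E14.5), from 0 to 1 and from 3 to 139 (without WT replicate 3 at 12 months) over the 3 steps. From 6 to 12 months they ranged from 0 to 2 in WT and from 209 (without HET replicate 3 at 6 months) to 814 in HET mice.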
